A study of Mus musculus with 7 samples.

Results

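The cytosolic ribosomal protein genes encode the proteins of the ribosomes that translate nuclear messages, and their messages were measured here in endothelial cells sorted from mouse embryonic lung. Members were taken by gene symbol: the prefix Rpl or Rps followed by a number with at most a short suffix, together with Rplp0, Rplp1, Rplp2 and Rpsa. Only probe sets annotated with exactly 1 symbol were used, and of several such probe sets for a gene the one with the highest mean over all 7 arrays was kept. This gave 67 genes of the 22180 measured in this way, 25 of the small and 42 of the large subunit. Of 79 canonical ribosomal protein genes, 58 were members. The other 21 were Fau, whose symbol the rule does not match, 12 genes found only on probe sets that list several symbols (among them Rpl10, Rpl13a, Rpl31 and Rps2) and 8 not analysed here. The remaining 9 members were paralogs and copies, namely Rpl3l, Rpl6l, Rpl7l1, Rpl10l, Rpl22l1, Rpl32l, Rpl39l, Rps4l and Rps27l.

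A cytosolic ribosome joins a small subunit, which reads the message, to a large subunit, which forms the peptide bond and holds the exit tunnel. Each protein is needed in about the same amount, and its genes typically carry a run of pyrimidines (C or T) at the start of transcription, the 5′ terminal oligopyrimidine tract, through which growth signals acting by mTOR regulate translation of the message. In endothelial cells as in others, ribosomal protein messages are among the most abundant, and inherited loss of 1 copy of many of them causes Diamond-Blackfan anaemia.

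Arrays came from embryos at E18.5, all on a C57BL/6 background, with 3 arrays labelled wild-type (WT1 to WT3) and 4 labelled Sash1-knockout (KO1 to KO4). Per the labels the knockout embryos were Sash1-/- littermates of the wild-type ones, and they name no driver that would limit the loss of Sash1, which encodes a signalling scaffold protein, to endothelium. Living cells that carried CD31, an endothelial surface protein, and lacked CD45 and CD326, which mark leukocytes and epithelium, were sorted and their RNA was amplified and hybridised to 1-colour arrays. Whether each array stands for its own embryo or litter is not in the labels. The p-values therefore describe the spread between these samples, and part of that spread may be technical.

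Array means over all 16637 genes tested lay between 5.54 and 5.58, in log2 signal as throughout. The 10 endothelial markers averaged 10.06 to 10.28 on the 7 arrays. Sash1 was 9.02, 8.73 and 8.33 on WT1 to WT3, and 8.29, 8.21, 8.68 and 8.13 on KO1 to KO4. The groups overlapped: KO3 was above WT3, and only this pair went against the labels. WT3 was above KO1, KO2 and KO4, and KO3 was below WT1 and WT2. The difference, knockout-labelled minus wild-type-labelled, was -0.37, with a 95% confidence interval from -0.83 to 0.10. Its Benjamini-Hochberg adjusted p in limma was 0.971. The deleted stretch of Sash1 is not given in the labels, and probes that lie outside a deletion check nothing. Directions below therefore rest on the labels, and values without WT3 and KO3 are given for the module, for the counts and for single genes that they move most.

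The start-site sequences of the members are shown first, because a pyrimidine run at the start is the feature the family is known for and the selection by symbol did not use it. Not every member start carries a long one. RefSeq promoters (assembly GRCm38.p6, 250 bases before to 50 bases after each annotated start) were found for 52 of the 67 members, with 61 starts. The 30 bases below run 5′ to 3′ on the gene's strand, 15 from before the start and the first 15 of exon 1, and capitals mark the longest run of C or T. Rpl7a, Rpl27a, Rpl35 and Rpl15 show long runs. Rpl4, Rpl28, Rpl38, Rps18 and Rps6 are genes of steady signal on these arrays, Rplp0 and Rplp2 belong to the ribosomal stalk, and Rpl5 and Rpl11 bind 5S rRNA.
Rpl7a (chr2:26910792-26910821, plus strand): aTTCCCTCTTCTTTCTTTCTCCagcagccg
Rpl27a (chr7:109519180-109519209, plus strand): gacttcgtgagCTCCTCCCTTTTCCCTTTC
Rpl35 (chr2:39005117-39005146, minus strand): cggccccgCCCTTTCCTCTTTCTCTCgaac
Rpl15 (chr14:18270972-18271001, minus strand): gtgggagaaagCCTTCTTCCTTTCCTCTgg
Rpl4 (chr9:64173372-64173401, plus strand): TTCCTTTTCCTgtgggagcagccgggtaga
Rpl28 (chr7:4792950-4792979, plus strand): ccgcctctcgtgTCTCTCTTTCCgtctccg
Rpl38 (chr11:114668565-114668594, plus strand): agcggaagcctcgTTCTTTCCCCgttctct
Rps18 (chr17:33955651-33955680, minus strand): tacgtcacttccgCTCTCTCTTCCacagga
Rps6 (chr4:86857353-86857382, minus strand): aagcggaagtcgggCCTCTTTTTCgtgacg
Rplp2 (chr7:141447636-141447665, plus strand): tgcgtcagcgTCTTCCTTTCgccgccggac
Rplp0 (chr5:115559452-115559481, plus strand): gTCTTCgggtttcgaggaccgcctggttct
Rpl5 (chr5:107900513-107900542, plus strand): TCTCacgtcgcttgcgtgctggtggtgcta
Rpl11 (chr4:136053379-136053408, minus strand): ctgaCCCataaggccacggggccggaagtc
The run measured 21 bases in Rpl7a, 19 in Rpl27a, 18 in Rpl35 and 17 in Rpl15. It measured 10 in Rps6, Rpl38 and Rplp2, 5 in Rplp0, 4 in Rpl5 and 3 in Rpl11. An annotated start a few bases away from the true one moves the run within or out of this window, so a short run says only that these letters are not here.

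Over the same windows, a run of at least 8 pyrimidines was present at 24 of the 61 member starts (39.3%), against 12% (3943) of all 32851 starts. At least 10 in a row were present at 16 member starts (26.2%), against 5.34% of all starts. The share of C or T within 15 bases of the start was 58.3% at member starts and 49.1% at all starts. Between 50 and 20 bases before the start it was 51.6% and 49.8%. Between 20 and 50 bases after the start it was 56.1% and 48.5%. The letters CTTTC, a core of many such tracts, were found on the gene strand of 12 windows (19.7%), against 4.05% of all. Over the whole 300 bases and both strands, CGGAAG, the core bound by ETS-family factors such as GABP, was in 35 of 61 member promoters (57.4%) and 16.9% of all promoters. For CACGTG, the E-box bound by Myc, the shares were 9.84% and 7.15%, and for TATAAA 9.84% and 13.6%. Read on the other strand CGGAAG is CTTCCG, which is mostly pyrimidines and can overlap such a run. The matches are descriptions of the sequences and do not show binding or use.

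**Figure D1:**
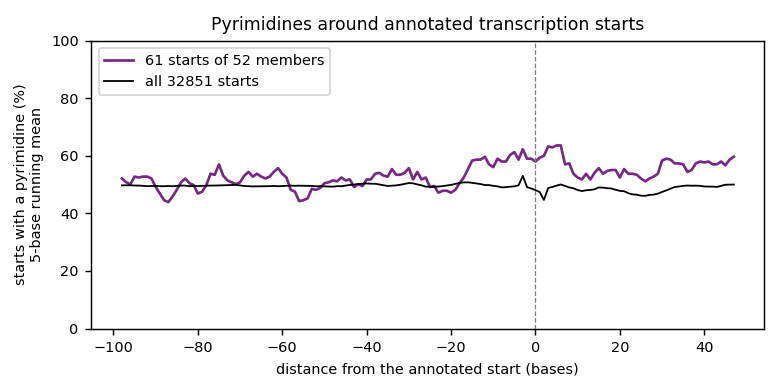
Share of annotated starts with C or T at each distance from the start (5-base running mean), for the 61 starts of 52 ribosomal protein genes and for all 32851 mouse starts. The member curve is the higher around the start, where the shares within 15 bases were 58.3% and 49.1%.

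No ribosomal protein gene passed the test of a difference between the arrays labelled knockout and those labelled wild-type, and most differences were small. After the dimmest 25% of genes had been left out, 63 of the 67 members were tested. The other 4 were Rplp2 at a mean of 2.83, Rpl22l1 at 2.35, Rpl32l at 1.71 and Rpl10l at 1.45. The limit was 2.98, and Rpl3l, the member just inside it, had 3.08. In limma with Benjamini-Hochberg adjustment over all genes tested, 0 of 63 members passed an adjusted p of 0.05, beside 0 (0%) of the 16637 genes tested. At an unadjusted p under 0.05, 0 members were higher on knockout-labelled arrays (background 2.38%) and 1 was lower, Rpl5 (background 0.962%). In either direction this was 1 of 63, with a background of 3.34%. Rpl5 was also the only member whose groups did not overlap, beside 0.679% of all genes tested in that direction, 1.77% in the other and 2.45% in either. Of the 63 differences, 26 were positive, 36 were negative and that of Rps18 was 0. Their median was -0.01, against 0.015 over all genes tested. In bulk samples, fewer cells of a type and less RNA per cell cannot be told apart.

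Without WT1 or without WT3, the members without overlap were 5 (7.94%), beside 7.59% and 15.3% of all genes tested. They were 3 without WT2 or without KO4 and 2 without KO1 or without KO2, beside 5.84%, 4.09%, 4.72% and 5.51% of all genes in that order. The lower members at an unadjusted p under 0.05 were 2 (3.17%) without KO4, beside 0.727% of all genes tested. They were 0 without WT1, WT3, KO1 or KO2, beside 0.805%, 3.38%, 0.751% and 1.36% in that order. The higher ones were 1 (1.59%) without WT1 or without WT2, beside 1.95% and 1.20%. None of these fits placed a member past the adjusted threshold.

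**Figure D2:**
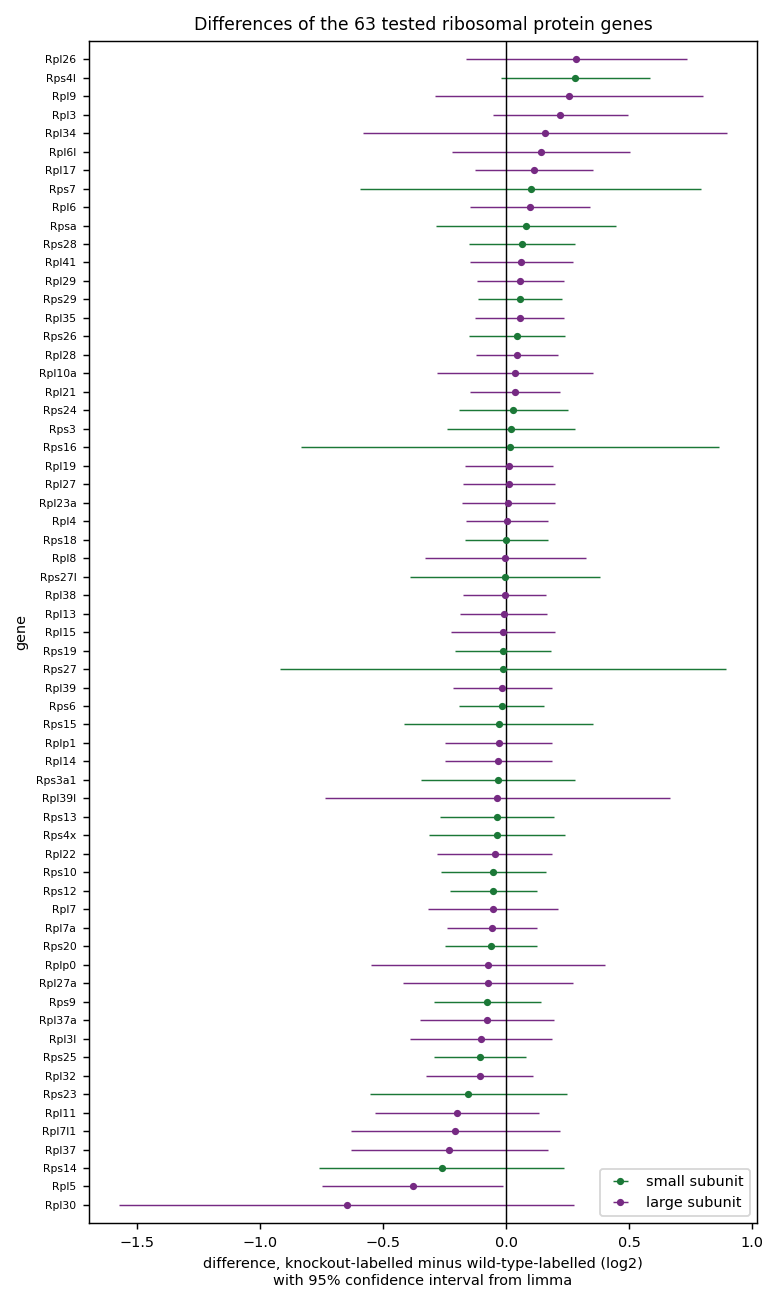
Difference between knockout-labelled and wild-type-labelled arrays for each of the 63 tested members, in log2 units, with the 95% confidence interval from limma, ordered by difference and coloured by subunit. Only the interval of Rpl5 leaves out 0, and the widest belongs to Rpl30.

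The intervals give the sizes that the 7 arrays leave possible. They lay within 0.5 log2 units either side of 0 for 46 of 63 members, and within 1 unit for 62. Over all genes tested the same held for 9157 and 15524 of 16637. The median interval reached 0.24 either side for members and 0.345 for all genes tested. For the 30 members with a mean signal of 10 or more, differences ran from -0.11 to 0.06. The lowest bound among their intervals was -0.35 and the highest 0.35, that is 78.6% and 128% of the wild-type-labelled signal on a linear scale. These members lie near the top of the scale, with means up to 12.40, as high as that of any gene. Whether signal there still follows the amount of RNA was not tested, so the bounds are limits on signal. The 33 tested members with a signal below 10 ran from -0.65 to 0.285, and 16 of them had intervals within 0.5. All 10 tested members with a difference of over 0.2 in size were among these dimmer probe sets. Rpl22l1, left untested as dim, was at -0.31.

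As a module, the 67 genes averaged 8.29, 8.23 and 8.11 on WT1 to WT3, and 8.11, 8.15, 8.28 and 8.21 on KO1 to KO4. Of these genes 23 had a mean below 6, Rps14 and Rpl11 among them, where the median over all genes was 4.46. How well such dim probe sets measure their gene was not tested. WT1 and KO3 were highest, WT3 and KO1 lowest, and the groups overlapped across nearly their whole range. The means were 8.21 ± 0.09 (SD, n = 3) and 8.19 ± 0.07 (SD, n = 4), a difference of -0.02, smaller than either SD. No p is given for a score over members chosen with earlier results known. The small subunit members averaged 8.57, 8.54 and 8.38 on WT1 to WT3, and 8.37, 8.44, 8.60 and 8.53 on KO1 to KO4, a difference of -0.01. The large subunit members averaged 8.13, 8.05 and 7.94 on WT1 to WT3, and 7.96, 7.97, 8.09 and 8.01 on KO1 to KO4, a difference of -0.03. Both subunits had WT1 and KO3 among their high arrays and WT3 and KO1 as their lowest. Without WT1 the module difference was 0.02, and over the 7 ways to leave out 1 array it ran from -0.07 to 0.02.

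**Figure D3:**
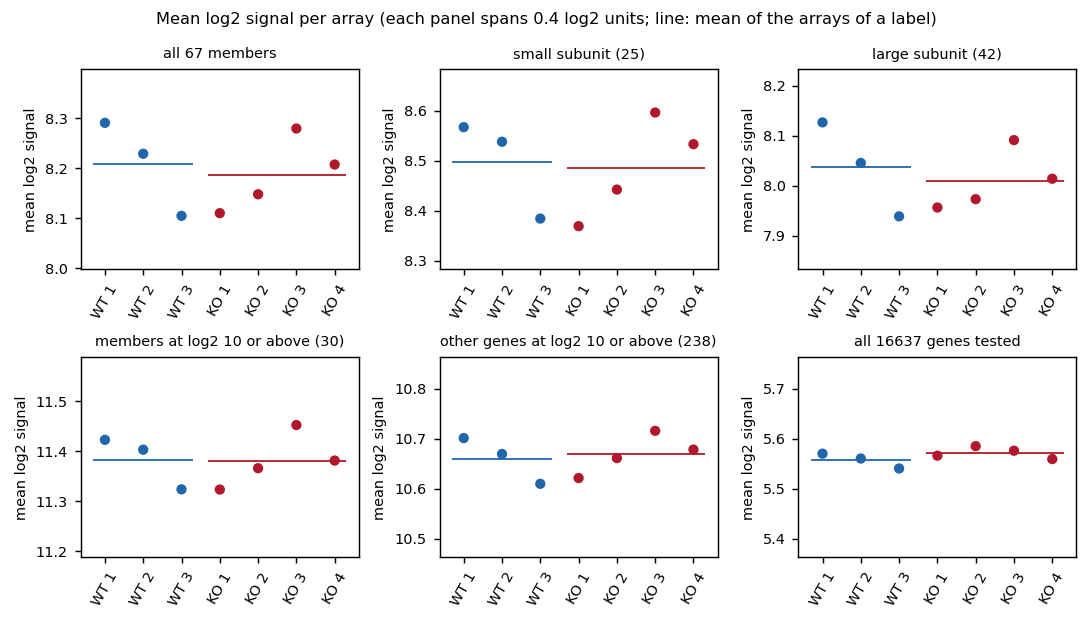
Mean log2 signal on each array for all members, each subunit, the members at 10 or above, other genes at 10 or above and all genes tested, with points per array (3 labelled wild-type, 4 labelled knockout) and lines at the mean of each label. Every panel spans 0.4 log2 units, and WT1 and KO3 stand above WT3 and KO1 for members and for other bright genes alike.

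The arrays differed more within a label than the labels did. On WT1, 56 of 67 members (83.6%) were above their own mean over the 7 arrays, on WT2 45 (67.2%) and on WT3 19 (28.4%). On KO1 to KO4 they were 28 (41.8%), 29 (43.3%), 49 (73.1%) and 37 (55.2%). WT3 held the single lowest value of 18 of the 65 members that had one (27.7%), beside 17.0% of all genes tested. KO3 held the single highest value of 20 of 64 (31.3%), beside 13.1% of all genes tested. The other genes with a signal of 10 or more (238) ordered the arrays much alike, with 59.2%, 50.8% and 39.1% of them above their own mean on WT1 to WT3, and 31.1%, 53.8%, 67.2% and 54.2% on KO1 to KO4. WT3 and KO3, the pair whose Sash1 signals went against the labels, were for the members the lowest of all 7 and the highest of the knockout-labelled arrays by this share. For the other bright genes KO1 was the lowest.

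Without WT3 and KO3, 14 of 63 member differences were positive and 49 negative, with a median of -0.08 against 0.005 over all genes tested. The module difference was -0.10, as for each subunit. Groups did not overlap for 16 members (25.4%), 15 of them lower on knockout-labelled arrays (23.8%), beside 24.0% of all genes tested in either direction and 10.9% lower. The 15 included Rps27 (-0.63), Rpl5 (-0.42), Rplp0 (-0.39), Rps4x (-0.17), Rpl7 (-0.16), Rpl10a (-0.16), Rplp1 (-0.13) and Rps6 (-0.055). In this fit of 2 against 3 arrays, 2 members (3.17%) were lower at an unadjusted p under 0.05, beside 4.73% of all genes tested, and 0 passed the adjusted threshold in limma. The arrays were set aside after their Sash1 signal had been seen, so these values describe how far the result rests on them.

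Levels of other genes also differed between arrays, and not every list ordered the arrays as the members did. The 12 dissociation stress genes, such as Fos and Jun, averaged 7.51 to 9.01 on wild-type-labelled and 6.71 to 9.37 on knockout-labelled arrays, with KO3 highest and WT3 the lowest of its label. The 12 lung epithelial markers ranged from 7.02 to 8.13 and from 6.46 to 7.93, and the 11 leukocyte markers measured from 5.81 to 6.40 and from 5.31 to 6.21. The 4 platelet markers measured ranged from 4.90 to 5.97 and from 4.54 to 5.86. In each of these lists WT3 was the lowest wild-type-labelled array and KO3 the highest knockout-labelled one, and no list had a marker past the adjusted threshold. KO4 was the lowest of all 7 arrays in each, whereas for the members KO1 was the lowest knockout-labelled array. The 10 fibroblast and mural markers ranged from 6.99 to 7.47 and from 6.90 to 7.63, and the 4 erythroid markers measured from 4.16 to 4.42 and from 4.30 to 4.495. The 15 cell cycle genes measured ranged from 5.94 to 6.53 and from 6.23 to 6.91. There WT1 was the lowest of all arrays and KO3 the lowest knockout-labelled one. The endothelial markers also went the other way, with WT3 the highest of its label (10.19) and KO3 the lowest of all 7 (10.06). Arrays have no true zero, so no marker is at 0, and the part of any of these lists in the ribosomal values was not tested.

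**Figure D4:**
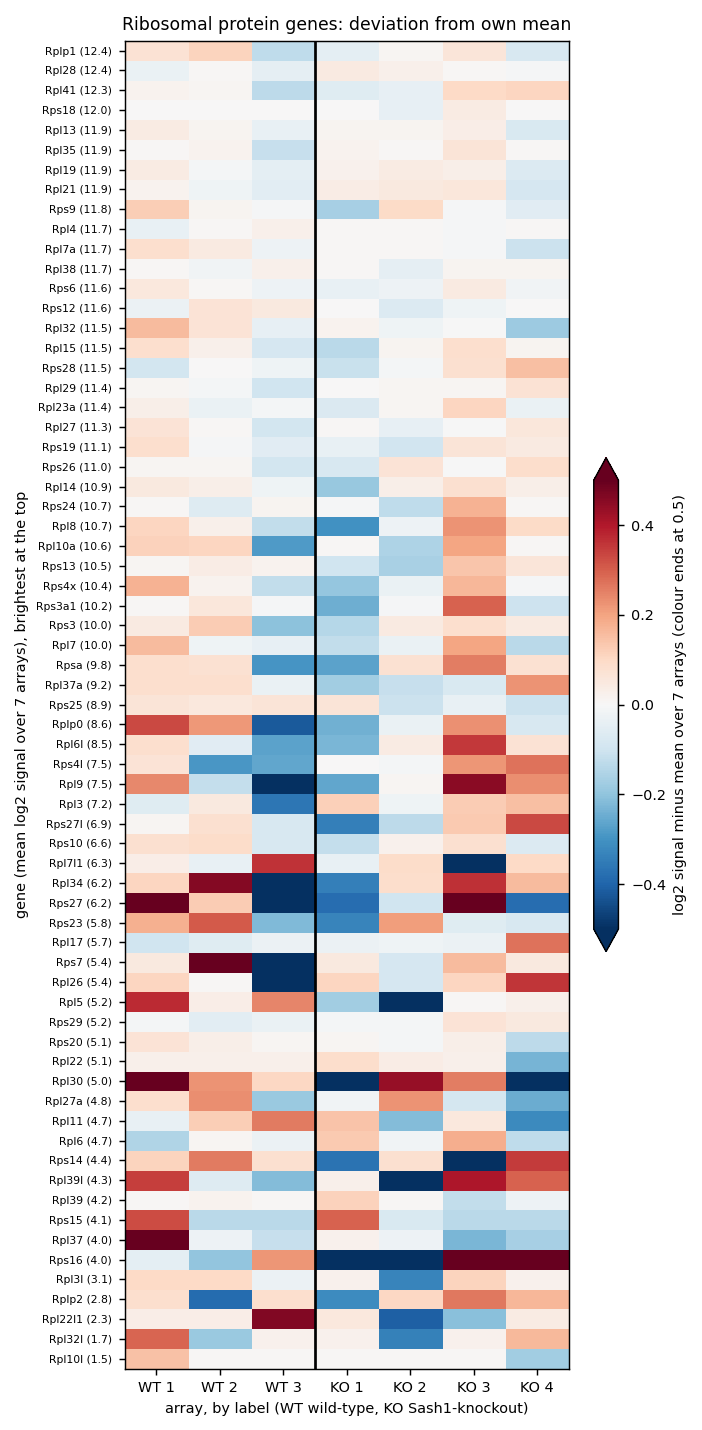
Log2 signal of each of the 67 members on each array minus the gene's mean over the 7 arrays, brightest gene at the top, with a line between arrays labelled wild-type and knockout. On WT1 56 of 67 members are above their own mean and on WT3 19, and strong colours sit mostly among the dimmer genes.

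Among small subunit genes, those of the head of the subunit (11 measured) had a mean difference of -0.01 and those of the body (12 measured) one of -0.03. None passed the test. Rps6, the substrate of S6 kinase downstream of mTOR, was 11.69, 11.64 and 11.61 on WT1 to WT3, and 11.60, 11.61, 11.68 and 11.62 on KO1 to KO4. Its groups overlapped, with a difference of -0.02. Rps18, a head protein, was 12.01 on every array except KO2 (11.97) and KO3 (12.05), a difference of 0. Rps4x, an X-linked body protein, was 10.54, 10.38 and 10.24 on WT1 to WT3, and 10.17, 10.33, 10.53 and 10.36 on KO1 to KO4, a difference of -0.04. WT1 and KO3 were again its highest arrays.

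Rpsa, which is also known as the precursor of a laminin receptor, was 9.87, 9.86 and 9.49 on WT1 to WT3, and 9.52, 9.86, 10.04 and 9.86 on KO1 to KO4. WT3 and KO1 were low and KO3 high, and the difference was 0.08, with overlap. Rps14, the gene whose loss underlies the anaemia of 5q- syndrome in people, was 4.49, 4.64 and 4.46 on WT1 to WT3. On KO1 to KO4 it was 4.01, 4.46, 3.87 and 4.73. KO1 and KO3 were lower than every wild-type-labelled array and KO4 higher, so that the difference of -0.26 lay within the spread.

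Of the 18 genes listed for Diamond-Blackfan anaemia, 14 were measured as members, with 8 positive and 6 negative differences and a mean of -0.003. None passed the test. Rps19, the gene most often mutated in that disease, was 11.21, 11.12 and 11.07 on WT1 to WT3, and 11.09, 11.03, 11.19 and 11.17 on KO1 to KO4. Its groups overlapped, with a difference of -0.01. Rps27, a zinc finger protein, was 6.72, 6.29 and 5.50 on WT1 to WT3, and 5.78, 6.06, 7.00 and 5.78 on KO1 to KO4. WT3 was its lowest array and KO3 its highest, and the difference was -0.015. Without WT1 it was 0.26, and without WT3 -0.35.

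In the large subunit, the stalk is formed by Rplp0, which anchors it, and by the small acidic proteins Rplp1 and Rplp2, which call in the translation factors that hydrolyse GTP. Rplp0 was 8.89, 8.78 and 8.14 on WT1 to WT3, and 8.32, 8.53, 8.79 and 8.48 on KO1 to KO4. WT3 was its lowest array, the groups overlapped, and the difference was -0.07. Rplp1 was 12.47, 12.51 and 12.27 on WT1 to WT3, and 12.35, 12.41, 12.46 and 12.32 on KO1 to KO4, a difference of -0.03 with WT3 again lowest. Rplp2 was 2.91, 2.44 and 2.91 on WT1 to WT3, and 2.51, 2.93, 3.09 and 2.99 on KO1 to KO4, below the limit for testing, although its start carries one of the pyrimidine runs shown above. A brighter probe set that lists Rplp2 with Snora52, a small nucleolar RNA of the same locus, averaged 7.91 with a difference of 0.57 and an SD over the 7 arrays of 0.54. It was 8.20, 7.79 and 6.77 on WT1 to WT3, and 8.02, 7.98, 8.32 and 8.31 on KO1 to KO4. The groups overlapped, and WT3 lay far below the other arrays.

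Rpl5 and Rpl11 join 5S rRNA in a particle that is built into the large subunit and that, when free, binds Mdm2 and so stabilises p53. Rpl5 was 5.60, 5.26 and 5.47 on WT1 to WT3, and 5.05, 4.72, 5.23 and 5.25 on KO1 to KO4. Every knockout-labelled value was below every wild-type-labelled one, by 0.01 between KO4 and WT2 at the closest. The difference was -0.38 (95% interval -0.75 to -0.01), with an unadjusted p of 0.0436 and an adjusted p of 0.971 in limma after Benjamini-Hochberg adjustment, so Rpl5 did not pass. Over the arrays left out in turn its difference ran from -0.47 to -0.27. Another probe set listing Rpl5 with a second symbol was 7.53, 6.45 and 6.03 on WT1 to WT3, and 6.68, 6.98, 7.02 and 7.58 on KO1 to KO4. There the difference was 0.395, of opposite sign and with overlapping groups, and WT3 was the lowest array. These probe sets thus give Rpl5 no single direction. Rpl11 was 4.67, 4.83 and 4.97 on WT1 to WT3, and 4.85, 4.49, 4.76 and 4.39 on KO1 to KO4. Its groups overlapped, with a difference of -0.20 (95% interval -0.53 to 0.13).

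The largest negative difference was that of Rpl30, which in yeast binds its own transcript. Its values were 5.77, 5.21 and 5.09 on WT1 to WT3, and 4.01, 5.42, 5.24 and 4.16 on KO1 to KO4. KO1 and KO4 were low while KO2 and KO3 lay among the wild-type-labelled arrays. The difference was -0.65 (95% interval -1.57 to 0.27). Next below Rpl5 and Rps14 came Rpl37, a zinc-binding protein, at -0.23, with 4.58 on WT1 and 3.81 to 4.06 on the other arrays. Without WT1 it was -0.0275. Rpl7l1, a nucleolar relative of Rpl7 that takes part in ribosome assembly, was -0.21, with 6.24 to 6.64 on wild-type-labelled and 5.77 to 6.38 on knockout-labelled arrays. Without WT3 and KO3 it was 0.055.

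The largest positive difference was that of Rpl26, which is also known to bind p53 mRNA. Its values were 5.46, 5.36 and 4.75 on WT1 to WT3, and 5.46, 5.27, 5.46 and 5.71 on KO1 to KO4. WT3 was low and the rest overlapped, with a difference of 0.285 (95% interval -0.17 to 0.74). Without WT3 it was 0.065. Rpl9 was 7.70, 7.34 and 6.90 on WT1 to WT3, and 7.20, 7.47, 7.91 and 7.69 on KO1 to KO4, a difference of 0.25. A dimmer probe set annotated to Rpl9 alone averaged 3.14 with a difference of -0.15, of opposite sign. Rpl34 was 6.33, 6.68 and 5.39 on WT1 to WT3, and 5.88, 6.31, 6.59 and 6.38 on KO1 to KO4, a difference of 0.16. In Rpl26, Rpl9 and Rpl34 alike WT3 was the lowest of the 7 arrays. Without WT3 the difference was 0.0475 for Rpl9 and -0.215 for Rpl34, and without both WT3 and KO3 it was -0.0667 and -0.315.

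Rpl3, which reaches the peptidyl transferase centre, was 7.17, 7.28 and 6.87 on WT1 to WT3, and 7.35, 7.21, 7.36 and 7.38 on KO1 to KO4. KO2 lay among the wild-type-labelled arrays, and the difference was 0.22 (95% interval -0.06 to 0.49). The other 2 probe sets annotated to Rpl3 alone had differences of -0.44 and -0.15, so its probe sets disagreed in sign. Rpl6l, annotated as a pseudogene, had a difference of 0.14.

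Rpl10a and Rpl38 are known for a role in the translation of particular messages. Rpl10a was 10.73, 10.72 and 10.33 on WT1 to WT3, and 10.62, 10.46, 10.81 and 10.62 on KO1 to KO4, a difference of 0.03. Rpl38, whose loss disturbs Hox mRNA translation and the skeleton in mice, was 11.69, 11.67 and 11.71 on WT1 to WT3. On KO1 to KO4 it was 11.69, 11.64, 11.70 and 11.70. All 7 values of Rpl38 thus fell between 11.64 and 11.71, with a difference of -0.01. Rpl41, the smallest ribosomal protein, was 12.31, 12.30 and 12.16 on WT1 to WT3, and 12.23, 12.25, 12.39 and 12.40 on KO1 to KO4, a difference of 0.06. KO3 and KO4 were its highest arrays and WT3 its lowest.

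The 7 paralogs, which replace or resemble a canonical protein in some tissues, had 1 positive and 6 negative differences. The positive one was Rps4l, a transcribed copy of Rps4x, at 7.58, 7.22 and 7.25 on WT1 to WT3, and 7.51, 7.50, 7.73 and 7.78 on KO1 to KO4. WT1 lay among the knockout-labelled arrays, and the difference was 0.28 (95% interval -0.02 to 0.58). Rpl39l, best known from testis, was 4.65, 4.24 and 4.09 on WT1 to WT3, and 4.33, 3.52, 4.71 and 4.60 on KO1 to KO4, a difference of -0.04. KO2 alone was low. Rps27l, a p53 target, was 6.87, 6.94 and 6.78 on WT1 to WT3, and 6.52, 6.73, 6.99 and 7.19 on KO1 to KO4, a difference of -0.01. Its knockout-labelled values enclosed the wild-type-labelled ones.

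Rpl3l, the form of striated muscle, stayed between 2.75 and 3.19 on all 7 arrays, near the limit for testing, with a difference of -0.10. Rpl10l, a testis form, lay between 1.28 and 1.60, and Rpl22l1, which can stand in for Rpl22, between 1.94 and 2.81. Both were untested. Of the 6 parents that are members, Rpl3 had a positive difference, and Rpl7, Rpl22, Rpl39, Rps4x and Rps27 were at -0.05, -0.05, -0.02, -0.04 and -0.015.

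Members on bright probe sets varied least. The 30 members with a signal of 10 or more had a median SD over the 7 arrays of 0.067, against 0.138 for the other 238 genes past that limit. Their signals were not matched, with a median of 11.48 for the members and 10.50 for the others. How far a place near the top of the scale lowers the SD was not tested. For the 33 tested members below 10 it was 0.213, and for all genes tested 0.204. Rpl4, a protein of the exit tunnel, varied least, with an SD of 0.018 and values from 11.67 to 11.73. Rps18 (0.023), Rpl38 (0.024) and Rpl28 (0.032) came next. The largest SDs were those of Rpl30 (0.65), Rps27 (0.54), Rps16 (0.51) and Rpl34 (0.45). Rps16, also of the head, was 3.94, 3.79 and 4.21 on WT1 to WT3, and 3.49, 3.30, 4.55 and 4.64 on KO1 to KO4. KO1 and KO2 were lower and KO3 and KO4 higher than every wild-type-labelled array, and the difference was 0.015.

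The 4 most variable members also had another, brighter probe set that the rule leaves out because it lists more than 1 symbol. Of 20 members with such probe sets, the brightest of these exceeded the one used in 11. In 8 of these members the brightest shared probe set reached 10 or more (Rpl23a, Rpl26, Rpl27a, Rpl30, Rpl34, Rpl37a, Rps16 and Rps27). For these 8, differences ran from -0.03 to 0.05 on the brightest shared probe sets and from -0.65 to 0.285 on those of a single symbol. SDs ran from 0.027 to 0.167 and from 0.058 to 0.65. The rest of the 11, Rpl5, Rplp2 and Rpl39, went the other way, with brighter shared probe sets below 10. Their SDs were 0.56, 0.54 and 0.20, against 0.285, 0.25 and 0.07 on those of a single symbol. Their differences were 0.395, 0.57 and -0.15, against -0.38, 0.13 and -0.02. For Rpl30 the brightest shared probe set averaged 11.63 with a difference of -0.03, against 4.99 and -0.65. Of its other shared probe sets, a bright one averaged 11.44 with -0.035. A dim one averaged 4.64 with -0.51, without overlap between the labels. For Rps16 the brightest shared probe set averaged 11.91 with 0.05, against 3.99 and 0.015. For Rpl26 it averaged 11.16 with a difference of -0.02, of opposite sign to the 0.285 above. Levels of different probe sets are not comparable as amounts of RNA, and near-identical copies of a gene cannot be told apart on shared probe sets. For Rpl30 and Rpl26, which had the largest negative and positive differences of the family, the brightest shared probe set thus gave values within 0.05 of 0. The dim shared probe set of Rpl30 did not.

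**Figure D5:**
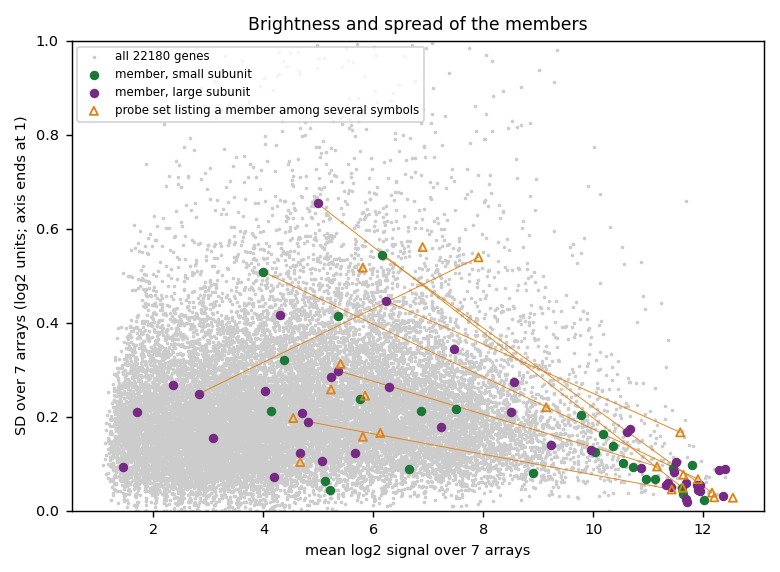
Mean log2 signal and SD over the 7 arrays for all 22180 genes (grey), the members by subunit and, per gene, the brightest probe set that lists a member among several symbols (triangles). Lines join both probe sets of a gene where the triangle is over 4 units brighter. Dim members such as Rpl30, Rps16 and Rps27 have SDs above 0.5, while their triangles lie below 0.1. For Rpl5, Rplp2 and Rpl39 the brighter triangle has the larger SD.

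Of the machinery around the ribosome, no gene passed the adjusted threshold in limma. The 71 mitochondrial ribosomal protein genes, a separate set of proteins for the ribosome within mitochondria, had 56 positive (78.9%) and 14 negative differences with a median of 0.0975. Over all genes tested 53.9% of differences were positive and the median was 0.015. At an unadjusted p under 0.05, 6 of them (8.45%) were higher and 0 lower, beside 2.38% and 0.962% of all genes tested. Mrpl38 was 5.92, 5.74 and 5.67 on WT1 to WT3, and 6.19, 6.25, 6.02 and 6.45 on KO1 to KO4, a difference of 0.45 with no overlap. Mrpl14 was 6.20, 6.31 and 5.88 on WT1 to WT3, and 6.48, 6.51, 6.49 and 6.58 on KO1 to KO4, a difference of 0.385 with no overlap. The mean of the 71 genes was 6.56 to 6.68 on wild-type-labelled and 6.59 to 6.78 on knockout-labelled arrays, so the groups overlapped, KO1 alone lying low among its label.

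A list of translation factors and genes known for terminal pyrimidine tracts, which also holds Fau, Npm1 and Vim, had 18 genes measured. Of these, 5 differences were positive and 13 negative, with a median of -0.035. The closest to the threshold were Eif3e, a subunit of an initiation factor, at -0.25 and Nap1l1, a histone chaperone, at -0.13, both with overlap. Of 37 ribosome biogenesis genes, 23 differences were positive and 14 negative, with 1 gene higher and 1 lower at an unadjusted p under 0.05 (2.7% each, beside 2.38% and 0.962% of all genes tested). The higher was Dkc1, the pseudouridine synthase of H/ACA particles, at 4.86, 4.94 and 5.02 on WT1 to WT3 and 5.20, 5.61, 5.20 and 5.83 on KO1 to KO4, without overlap. The lower was Nmd3, the export adaptor of the large subunit, at 9.11, 9.23 and 8.71 on WT1 to WT3 and 8.62, 8.58, 8.71 and 8.31 on KO1 to KO4, where WT3 and KO3 were tied.

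The 16 growth control genes measured had 8 positive and 7 negative differences with a median of 0.01. Mtor was at 0.22 and Myc, a driver of ribosomal gene transcription, at -0.575, with Myc between 5.92 and 7.51 on wild-type-labelled and 5.81 and 6.56 on knockout-labelled arrays. Of 7 nucleolar stress and p53 genes tested, 2 differences were positive and 5 negative. Mdm2, the ubiquitin ligase that free Rpl5 and Rpl11 bind, was at -0.26. Cdkn1a, the p53 target that encodes p21, was 11.18, 11.07 and 8.76 on WT1 to WT3, and 9.22, 9.28, 10.71 and 9.08 on KO1 to KO4, a difference of -0.76. WT3 lay below all knockout-labelled arrays and KO3 above the other 3. In Sash1 it was this pair, WT3 and KO3, that went against the labels. Without both, the difference was -1.93 for Cdkn1a and -1.12 for Myc.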

How the data were processed

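RNA of sorted endothelial cells was measured on 7 arrays in 2 labelled groups. The authors deposited 1 value per probe set and array, made with RMA in Affymetrix Expression Console 1.1 per the submitters' processing notes. That these are log2 values was read from the deposited values. Precision is limited by how many arrays there are. For the array annotation, a genome build is not given in the sources used here.

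Of 41345 probe sets, GEO's platform annotation gave 23521 exactly 1 symbol, 1814 several and 16010 none, and 99.2% of its gene identifiers were found in RefSeq (GRCm38.p6). The 67 members came from 108 single-symbol probe sets, and 25 members had more than 1. The dimmest 25% of genes (5543, mean below 2.98) were left out, and 16637 were tested.

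Labels were compared with limma 3.58.1 (lmFit, eBayes, two-sided) in R 4.3.3, with Benjamini-Hochberg adjustment over all genes tested and a threshold of 0.05. The procedure was tested on simulated data. Groups do not overlap when every array of one label lies above every array of the other. No set test was run. Members and lists were chosen with earlier results of these data known. Named members were the stalk, 5S particle, paralog and parent genes, Rpsa, Rps6, Rps14, Rps19, Rpl10a, Rpl38 and Rpl41, the 6 largest differences in each direction, genes without overlap, the 4 largest and 4 smallest SDs and those left out as dim. From each list of machinery around the ribosome, the 2 genes of smallest unadjusted p were named. The alternatives were other filters, normalizations, moderation, array weights, probe set rules, replicate blocks and arrays left out.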

Additional observations from a re-analysis of the deposited data

Results flagged for a closer look

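In the 4 knockout-labelled arrays, 39 groups of values were searched for a single array far from the others, and 3 stood out, where chance alone marks about 1 in 20 groups. Rpl10l was 1.28 on KO4 and 1.46 on the other 3 arrays, a gene too dim to be tested. Rpl38 was 11.64 on KO2 and 11.69 to 11.70 on the others. Rpl4 was 11.70 on KO3 and 11.71 on the others, a gap of the size of the 2-decimal rounding.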

How the results depend on the processing

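Across the 19 alternatives run, 0 members passed the adjusted threshold, and the lowest adjusted p of a named member or Sash1 was 0.275. With array weights 1 member (1.59%) was higher at an unadjusted p under 0.05, beside 5.08% of all genes tested (main 0). Over the arrays left out in turn, 0 to 1 members were higher. Members lower were 0 with array weights, probe sets of several symbols or a random replicate block, beside 2.79%, 0.961% and 0.613% of all genes. They were 2 (3.17%) with WT3 and KO3 both left out, beside 4.73%, and 0 to 2 over arrays left out (main 1). Members without overlap were 2 (3.17%) after quantile normalization or median centring, beside 5.03% and 3.88% of all genes. They were 0 with several symbols, beside 2.44%, and 16 (25.4%) without WT3 and KO3, beside 24.0%. Over arrays left out they were 1 to 5 (main 1). Leaving out 1 array moved the module difference between -0.07 and 0.02, that of the small subunit between -0.07 and 0.03 and that of the large between -0.08 and 0.02. Without WT3 and KO3 the large subunit was at -0.10. The cause was not tested.

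No pairing by replicate number was seen: deviations of same-numbered arrays from their group means correlated at -0.18, -0.20 and -0.55. No array correlated best with its own number. Deviations within a group of so few arrays must balance out, so these correlations cannot exclude a pairing by litter or batch. With the number as a fixed replicate block, the module difference was -0.03. In that fit 2 members (3.17%) were lower at an unadjusted p under 0.05, beside 0.535% of all genes tested. Rpl22 (0.0233), Rps16 (-0.20) and Rps27 (0.11) changed sign. With a random block Rps27l was 0.0227.

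Of 32 named members tested, 8 kept their sign in every setting. Signs changed with WT3 and KO3 left out in Rpl10a (-0.16), Rpl34 (-0.315), Rpl39 (0.0217), Rpl41 (-0.0117), Rpl6l (-0.05), Rpl7l1 (0.055), Rpl9 (-0.0667), Rps16 (-0.055) and Rpsa (-0.12). They changed with array weights in Rpl10a (-0.0181), Rpl34 (-0.13), Rpl38 (0.00573), Rpl39l (0.0385) and Rpsa (-0.00791), and with quantile normalization in Rpl10a (-0.00464) and Rpl38 (0.00696). Median centring turned Rpl4 (-0.005). Averaging the probe sets per gene turned Rpl3 (-0.13), Rpl4 (-0.0279), Rpl7 (0.10) and Rplp1 (0.00917). Allowing several symbols turned Rpl26 (-0.0208), Rpl34 (-0.0125) and Rpl5 (0.395). Leaving out 1 array at a time changed the sign of 17, with ranges of -0.0975 to 0.1025 for Rpl10a, -0.0833 to 0.0233 for Rpl22, -0.215 to 0.43 for Rpl34, -0.0175 to 0.00667 for Rpl38, -0.0567 to 0.0233 for Rpl39, -0.18 to 0.22 for Rpl39l, -0.0125 to 0.0175 for Rpl4, -0.13 to 0.01 for Rpl7, -0.305 to 0.07 for Rplp0, -0.105 to 0.015 for Rplp1, -0.20 to 0.25 for Rps16, -0.045 to 0.025 for Rps19, -0.35 to 0.26 for Rps27, -0.12 to 0.11 for Rps27l, -0.11 to 0.0375 for Rps4x, -0.0375 to 0.0025 for Rps6 and -0.045 to 0.18 for Rpsa.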

Other observations

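Canonical ribosomal protein genes that the selection left out because their probe sets list several symbols gave similar values where they were bright. Rpl31 lay between 12.26 and 12.30 on all 7 arrays, with a difference of -0.02. Rpl10 averaged 11.42 with a difference of -0.02, and Rpl35a 12.07 with 0.02. Rpl13a had several such probe sets, and the brightest also lists Snord32a, a small nucleolar RNA of its intron. It was 10.17, 9.40 and 8.33 on WT1 to WT3, and 9.40, 9.58, 10.13 and 10.54 on KO1 to KO4, a difference of 0.61. WT3 was its lowest array, and the groups overlapped. On the dimmer Rpl13a probe sets the differences were 0.34, 0.17 and -0.19, the last of opposite sign. These genes were chosen for mention after their values had been seen.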
